A study of Mus musculus with 12 samples.

Results

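The 10 genes examined here make, sense and move bile acids in the liver, and they were taken by name as Cyp7a1, Cyp8b1, Cyp27a1, Cyp7b1, Nr1h4, Nr0b2, Baat, Slc10a1, Abcb11 and Abcb4. Every probe whose accession maps to one of these symbols was kept, which gave 11 probes of the 39429 on the array, and 10 of the 20886 genes that could be named. Slc10a1 had 2 probes and each other gene had 1, and all 11 probes were well above background on all 12 arrays.

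The livers came from female C57BL/6N mice bought at 6 weeks of age, acclimated for 2 weeks and then fed their diet for 6 months. Ctrl mice ate NFD, a normal formula diet whose carbohydrate was corn starch and sucrose, and RS mice ate the same diet with added resveratrol, at a dose that the labels do not give. DJ mice ate NFD with Dongjin rice in place of the corn starch and sucrose, and DJ526 mice ate it with the resveratrol-enriched rice DJ526 in that place. DJ526 is Dongjin rice that carries a peanut stilbene synthase gene, so the 2 rice diets differ in the transferred gene as well as in resveratrol, and the 2 resveratrol diets differ in their carbohydrate. Each diet had 3 mice with 1 array each, and the cages, which held 10 animals each, were assigned to diets, so mice of a diet may have shared a cage. The hour of death and feeding state are not given in the sources used here.

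Bile acids are made from cholesterol in hepatocytes. The classic pathway begins with the 7α-hydroxylase Cyp7a1, and the 12α-hydroxylase Cyp8b1 then steers the product towards cholic acid. An alternative pathway begins with the sterol 27-hydroxylase Cyp27a1 and continues through the oxysterol 7α-hydroxylase Cyp7b1. Bile acids that return to the liver activate the nuclear receptor FXR (Nr1h4), which induces the repressor SHP (Nr0b2) and the export pump BSEP (Abcb11), and SHP lowers the 2 hydroxylases of the classic pathway. Expression of Cyp7a1 also follows feeding and the time of day.

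Levels are given as log2 of the array signal minus log2 of the 75th percentile of that array, so 0 is the signal at that percentile and 1 unit is a doubling. A probe's level cannot be set against that of another probe. Differences are log2 differences of group means with 95% intervals, and p-values were adjusted over all 39429 probes. The arrays lay on 3 slides of 4, and diet and slide went together in large part. Slide 1 held the 3 Ctrl mice and DJ mouse 1, slide 2 held DJ mice 2 and 3 and RS mice 1 and 2, and slide 3 held RS mouse 3 and the 3 DJ526 mice. A supplementary sample list of the study gives the array identifiers of RS and DJ the other way round. The groups here follow the labels. Some differences of Cyp7a1, Cyp8b1 and Abcb11 are given also with these arrays exchanged. So are the counts of the genes examined at an unadjusted p, where the exchange moved them. Other results that rest on RS or DJ, such as those of further pathway genes and of marker genes, follow the labels only. For these, an exchange would give the values of RS to DJ and those of DJ to RS. As these were whole livers, fewer cells of a type and less RNA per cell cannot be told apart.

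None of the 10 genes passed the adjusted threshold of 0.05 in any comparison, and the differences at an unadjusted p under 0.05 lay in Cyp7a1, Cyp8b1 and Abcb11. Cyp7a1 had its lower levels on the 2 rice diets, Cyp8b1 on DJ526 alone, and Abcb11 had its higher levels on the 2 rice diets. Nr1h4, Baat, Cyp27a1 and, on the brighter of its 2 probes, Slc10a1 each had group means within 0.2 of each other. RS against Ctrl gave 0 of 10 genes at an adjusted p under 0.05, against 0.0% of all probes, and 0 of 10 at an unadjusted p under 0.05, against 6.0%, and in 0 of 10 did the mice not overlap, against 10.2%. Its differences ran from -0.39 for Cyp8b1 to 0.12 for Nr0b2, with a median of -0.08, beside 0.03 over all probes.

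DJ against Ctrl gave 0 of 10 genes called, against 0.0% of all probes, and 1 of 10, Cyp7a1, at an unadjusted p under 0.05, against 5.22%, while 0 of 10 were without overlap, against 9.34%. DJ526 against Ctrl gave 0 of 10 called, against 0.00507%, and 2 of 10, Cyp7a1 and Cyp8b1, at an unadjusted p under 0.05, against 10.8%. The mice of DJ526 and Ctrl did not overlap in 3 of 10 genes, Cyp7a1, Cyp8b1 and Abcb11, against 20.6% of probes. DJ526 against DJ, the same rice with and without the transferred gene, gave 0 of 10 called, against 0.0101%, with Cyp8b1 alone at an unadjusted p under 0.05, against 9.81%, and alone without overlap, against 18.4%.

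DJ526 against RS gave 0 of 10 called, against 0.00761%, 2 of 10 (Cyp8b1 and Abcb11) at an unadjusted p under 0.05, against 5.5%, and 4 of 10 without overlap (Cyp7a1, Cyp8b1, Cyp7b1 and Abcb11), against 11.1%. The 6 rice-fed mice against the 6 on starch and sucrose gave 0 of 10 called, against 0.0%, and 3 of 10, Cyp7a1, Cyp8b1 and Abcb11, at an unadjusted p under 0.05, against 4.57%. No gene separated those 6 from the other 6 without overlap, against 0.119% of probes. The difference between the effect of DJ526 over DJ and that of RS over Ctrl gave 0 of 10 called, against 0.0%, and 0 of 10 at an unadjusted p under 0.05, against 6.09%. A test for any difference among the 4 diets gave 0 of 10 called, against 0.00507%, and 3 of 10 at an unadjusted p under 0.05, against 7.7%.

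**Figure D1:**
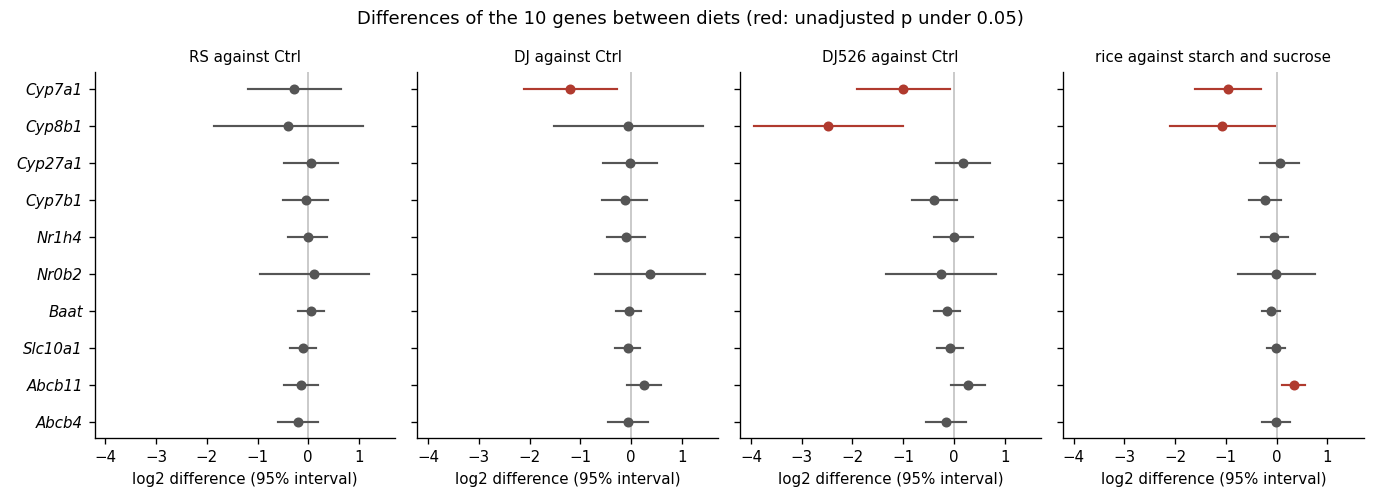
Log2 difference of each of the 10 genes, as points with 95% intervals, for each of the 3 other diets set against Ctrl, and for the 6 rice-fed mice against the 6 on starch and sucrose, with red for an unadjusted p under 0.05. The Cyp8b1 point at -2.47 for DJ526 lies farthest from 0, and none of the differences passes the threshold after adjustment.

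Cyp7a1, the rate-limiting enzyme of the classic pathway, had levels of 1.20, 1.28 and 2.08 in the Ctrl mice, and 1.12, 0.98 and 1.64 in the RS mice. The DJ mice had 1.42, 0.09 and -0.53, and the DJ526 mice 0.32, 0.57 and 0.69. All 3 DJ526 mice lay below all 6 mice on starch and sucrose, while DJ mouse 1 lay among those 6 and DJ mice 2 and 3 below them. In the order Ctrl, RS, DJ526, DJ the means were 1.52 ± 0.485, 1.25 ± 0.350, 0.53 ± 0.191 and 0.33 ± 0.998 (SD, n = 3 each), and of neighbours in that order only RS and DJ526 did not overlap.

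The 6 rice-fed mice were 1.94-fold lower in Cyp7a1 than the other 6, a difference of -0.96 (95% interval -1.60 to -0.31, unadjusted p = 0.00749, adjusted p = 0.975). DJ was 2.29-fold below Ctrl, at -1.19 (-2.11 to -0.28, unadjusted p = 0.0150, adjusted p = 0.861). DJ526 was 1.99-fold below Ctrl, at -0.99 (-1.91 to -0.08, unadjusted p = 0.0353, adjusted p = 0.428). Both rice diets thus lay below Ctrl by a similar amount, and these comparisons share the Ctrl mice. RS differed from Ctrl by -0.27 (-1.18 to 0.64), and DJ526 from DJ by 0.20 (-0.71 to 1.11). Those 2 intervals leave room for a change of over 1 unit in one direction or the other.

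The slide moved with the Cyp7a1 values. On slide 1, the single DJ mouse differed from the mean of the 3 Ctrl mice by -0.10. On slide 2, the mean of DJ mice 2 and 3 was 1.27 below RS mice 1 and 2 (-0.22 against 1.05), and on slide 3 the DJ526 mean was below the single RS mouse (0.53 against 1.64). With slide as a block, the Cyp7a1 difference was -0.10 for DJ against Ctrl and 0.05 for DJ526 against Ctrl, while RS against Ctrl became 1.17, and rice against starch and sucrose stayed at -0.61 (unadjusted p = 0.0341, adjusted p = 0.411). With slide as a block, Ctrl was tied to the other diets only through DJ mouse 1, and DJ526 only through RS mouse 3. The block differences from Ctrl thus rested on 1 or both of these arrays, for Cyp7a1 as for the other genes. Without DJ mouse 1, the only DJ array on slide 1, DJ against Ctrl was -1.74 (adjusted p = 0.194). The 264 spots within 10 rows and columns of the Cyp7a1 spot had a median difference of 0.01 for DJ against Ctrl and of 0.00 for DJ526 against Ctrl. The part of slide in the Cyp7a1 differences was not tested further. With the arrays of RS and DJ exchanged, rice against starch and sucrose was -0.036 for Cyp7a1 (-0.68 to 0.61, adjusted p = 0.984), and the lower level was that of RS and DJ526, while DJ526 against Ctrl does not use those arrays' means.

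Cyp8b1, the 12α-hydroxylase, showed the widest spread of the 10 genes. Its levels were 0.25, 1.03 and 0.27 in the Ctrl mice, 0.30, -0.14 and 0.22 in the RS mice, and -0.13, 0.40 and 1.11 in the DJ mice. The DJ526 mice had -1.35, -0.61 and -3.91. All 3 DJ526 mice lay below all 9 others, and DJ526 mouse 3 lay far below DJ526 mice 1 and 2. Its signal was 70.3 against 457 and 707 in DJ526 mice 1 and 2, and the dimmest probe well above background on its array was at 8.36, so the spot was still measured. The group means, in the order Ctrl, DJ, RS, DJ526, were 0.52 ± 0.443, 0.46 ± 0.619, 0.12 ± 0.234 and -1.96 ± 1.73 (SD, n = 3 each). RS and DJ526 were the only neighbours in that order that did not overlap.

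DJ526 was 5.56-fold below Ctrl in Cyp8b1, at -2.47 (-3.94 to -1.01, unadjusted p = 0.00345, adjusted p = 0.235). Against its parent rice DJ it was 5.35-fold lower, at -2.42 (-3.89 to -0.95, unadjusted p = 0.00399, adjusted p = 0.308), and against RS 4.23-fold lower, at -2.08 (-3.55 to -0.61, unadjusted p = 0.00975, adjusted p = 0.601). Neither RS nor DJ stood apart from Ctrl, with differences of -0.39 (-1.86 to 1.08) and -0.06 (-1.52 to 1.41). The effect of DJ526 over DJ exceeded that of RS over Ctrl by -2.03 (-4.10 to 0.05, unadjusted p = 0.0549, adjusted p = 0.828), so the difference in Cyp8b1 between the 2 ways of giving resveratrol did not pass the test.

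Mouse 3 of DJ526 set much of the size of the Cyp8b1 difference. Without it, DJ526 against Ctrl was -1.50 (-2.32 to -0.68, unadjusted p = 0.00222, adjusted p = 0.392), against DJ it was -1.44, and against RS -1.10. The Cyp8b1 difference between rice and starch and sucrose was -1.07 (unadjusted p = 0.0447, adjusted p = 0.975), -0.58 without that mouse, and -1.41 (unadjusted p = 0.0125, adjusted p = 0.381) with the arrays of RS and DJ exchanged. Within slide 3, the 3 DJ526 mice averaged -1.96 and the single RS mouse was at 0.22, and with slide as a block DJ526 against Ctrl was -3.49 (-7.28 to 0.30). Around the Cyp8b1 spot, 248 spots had a median difference of -0.05 for DJ526 against Ctrl.

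The start of the Cyp8b1 gene is shown because this was the member with the largest difference. RefSeq places the window, from 250 bases before to 50 bases after the start site, at chr9:121916256-121916555 on the minus strand of GRCm38.p6. The capitals mark CAAAGTCCA, a motif read by Hnf4a, the hepatocyte nuclear receptor, which begins at position -67 from the start site.

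Cyp8b1: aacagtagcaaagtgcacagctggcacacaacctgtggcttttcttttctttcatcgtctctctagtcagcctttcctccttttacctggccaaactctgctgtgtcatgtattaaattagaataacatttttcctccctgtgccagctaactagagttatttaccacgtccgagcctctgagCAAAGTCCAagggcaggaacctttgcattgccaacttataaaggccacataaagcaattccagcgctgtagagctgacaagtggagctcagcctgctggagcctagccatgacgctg

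That motif was searched for after the sequence had been seen, and 0.475% of the 32851 promoters in the table hold it on either strand. The other motifs searched were the single site AAGGTCA, which monomeric receptors such as Nr5a2 read, the direct repeat AGGTCANAGGTCA of Hnf4a and Rxra, the inverted repeat AGGTCANTGACCT of FXR, the D-box TTATGTAA and the E-box CACGTG, in both strands. The Cyp8b1 window held none of these, and of the 8 windows found for 7 of the 10 genes only that of Nr0b2 held any. The shares of all promoters with them were 4.72%, 0.0396%, 0.00913%, 0.938% and 7.15%. No window was given for Cyp7a1, Cyp7b1 and Baat.

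Cyp27a1, which opens the alternative pathway, was printed as 10 spots on each array. Its levels ran from 1.06 to 1.72 with Ctrl, from 0.88 to 1.89 with RS, from 1.27 to 1.69 with DJ and from 1.50 to 1.71 with DJ526. The 10 spots of 1 array had an SD between 0.04 and 0.09, and the 3 RS mice an SD of 0.53. Each mouse had 1 array, so mouse and array cannot be told apart. Its 4 diet means lay between 1.41 and 1.61, all groups overlapped, and DJ526 differed from Ctrl by 0.18 (-0.35 to 0.71).

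**Figure D2:**
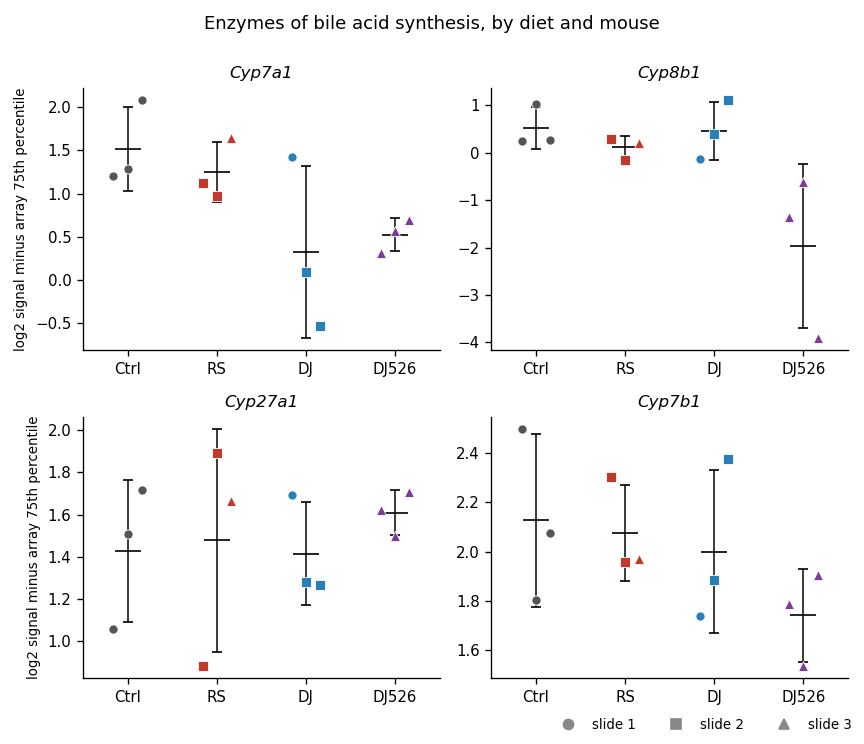
Level of the 4 synthesis enzymes in each mouse by diet, as log2 signal minus the array's 75th percentile, with the symbol giving the slide, and the mean (bar) ± SD of 3 mice. The DJ526 mice lie below all others for Cyp8b1, and DJ mouse 1, on slide 1, sits at 1.42 for Cyp7a1 with the Ctrl mice.

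Cyp7b1, the next enzyme of the alternative pathway, had levels of 2.50, 1.80 and 2.08 in the Ctrl mice and 2.30, 1.96 and 1.97 in the RS mice, and the rice-fed mice had 1.74, 1.88 and 2.38 on DJ and 1.78, 1.53 and 1.91 on DJ526. The DJ526 mice lay below the RS mice and overlapped with both other groups. The mean was lowest in DJ526, at 1.74 ± 0.190 against 2.13 ± 0.351 in Ctrl (SD, n = 3 each), a difference of -0.39 (-0.83 to 0.05, unadjusted p = 0.0799, adjusted p = 0.517).

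Nr1h4, the bile acid receptor FXR, was the flattest of the genes in its means, at 3.79 in both Ctrl and DJ526, 3.78 in RS and 3.70 in DJ, with SDs between 0.196 and 0.267. The 95% interval for DJ526 against Ctrl was -0.38 to 0.38. Mice within a diet differed by 0.39 to 0.49, more than any pair of diet means.

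Nr0b2, the repressor SHP, varied widely between mice of a diet. Its levels were -0.30, -1.36 and -2.23 in the Ctrl mice, -0.97, -1.02 and -1.53 in the RS mice, -1.94, -0.32 and -0.52 in the DJ mice, and -1.56, -1.91 and -1.19 in the DJ526 mice. All 4 groups overlapped, and the range of 1.93 within Ctrl was wider than the gap between the highest and lowest mean, -0.93 in DJ and -1.55 in DJ526. The interval for DJ526 against Ctrl ran from -1.34 to 0.82, and for DJ against Ctrl from -0.71 to 1.45.

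The window at the start of Nr0b2, at chr4:133553126-133553425 on the plus strand of GRCm38.p6, is shown because clock factors read the E-box CACGTG, which stands in capitals and begins at position -195.

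Nr0b2: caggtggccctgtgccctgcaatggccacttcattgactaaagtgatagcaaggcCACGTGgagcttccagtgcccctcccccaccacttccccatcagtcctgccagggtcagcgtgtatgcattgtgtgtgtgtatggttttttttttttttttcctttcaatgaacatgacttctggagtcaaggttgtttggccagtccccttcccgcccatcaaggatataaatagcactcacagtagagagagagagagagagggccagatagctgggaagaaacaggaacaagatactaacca

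As FXR, SHP and the hydroxylases form a feedback loop, 5 relations between them were examined over the 12 mice, with permutation p-values adjusted over the 5. Nr0b2 and Cyp7a1 had the largest r of these 5, with Pearson's r = -0.555 (permutation p = 0.0616, adjusted p = 0.308) and Spearman's rho = -0.476 (permutation p = 0.123, adjusted p = 0.484). Without Ctrl mice 1 and 3, which lay farthest from the median of Nr0b2, r was -0.589 (permutation p = 0.0734). Without the 2 mice farthest from the median of Cyp7a1 it was -0.238, so its size rested in large part on those 2. In Ctrl, RS and DJ, the mouse with the lowest Nr0b2 had the highest Cyp7a1, and in DJ526 it did not. With the mean of each diet taken off both genes r was -0.788 (permutation p within diets = 0.0304, adjusted p = 0.152), and with the mean of each slide taken off it was -0.452 (permutation p within slides = 0.0878, adjusted p = 0.439). The relation was pooled over the 12 mice, and no r was taken for a single diet or slide. It kept its sign with either mean taken off and did not pass the adjusted threshold in either. It did not stand out among the 45 pairs that the 10 genes form, which were examined afterwards: 6 pairs had a larger r in size, and the lowest adjusted p over the 45 was 0.373 for r and 0.538 for rho. Nr0b2 itself had a larger r in size with both enzymes of the alternative pathway and with the transporter Abcb4. With Cyp7b1 it had r = 0.615 (permutation p = 0.0339, adjusted p = 0.373) and rho = 0.573 (permutation p = 0.0560, adjusted p = 0.538), and r = 0.299 without the 2 mice farthest from the median of Cyp7b1. With Cyp27a1 it had r = -0.610 (permutation p = 0.0364, adjusted p = 0.373) and rho = -0.601 (permutation p = 0.0428, adjusted p = 0.538), and r = -0.558 without the 2 mice farthest from the median of Cyp27a1. With Abcb4 it had r = 0.556 (permutation p = 0.0565, adjusted p = 0.373) and rho = 0.629 (permutation p = 0.0327, adjusted p = 0.538). Without the 2 mice farthest from the median of Nr0b2, that r was 0.431.

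**Figure D3:**
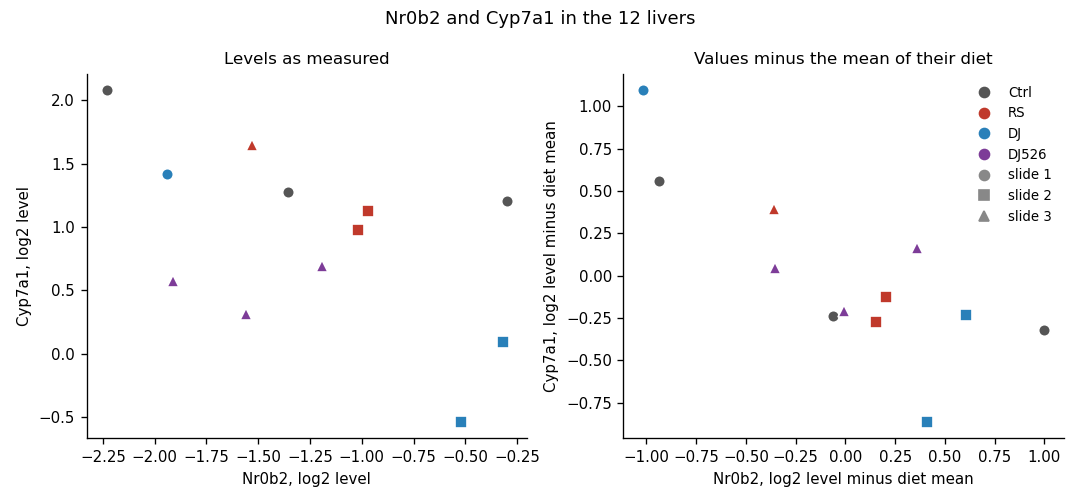
Level of Cyp7a1 against that of Nr0b2 in the 12 mice, as measured (left) and minus the mean of the mouse's diet (right), in log2 units, with colour for diet and symbol for slide. The points fall from upper left to lower right in both panels, with r = -0.555 on the left and -0.788 on the right.

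The other 4 relations were weaker. Nr0b2 and Cyp8b1 had r = 0.186 (permutation p = 0.592, adjusted p = 0.947) and rho = 0.406 (permutation p = 0.194, adjusted p = 0.484). FXR and its target Nr0b2 had r = -0.021 (permutation p = 0.947, adjusted p = 0.947) and rho = -0.035 (permutation p = 0.920, adjusted p = 0.974). FXR and its target Abcb11 had r = -0.365 (permutation p = 0.245, adjusted p = 0.612) and rho = -0.287 (permutation p = 0.366, adjusted p = 0.611). The 2 hydroxylases Cyp7a1 and Cyp8b1 had r = 0.080 (permutation p = 0.800, adjusted p = 0.947) and rho = 0.014 (permutation p = 0.974, adjusted p = 0.974), so a mouse low in Cyp7a1 was not regularly low in Cyp8b1. Without the 2 mice farthest in the first gene of each pair, r was 0.254, -0.494, -0.136 and 0.356 in that order, so the value for FXR and Nr0b2 rested on Ctrl mouse 1 and RS mouse 2.

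The 5 genes whose pattern was most like that of Cyp7a1 over the 12 mice, among 27285 probes that were named and well above background on every array, were D16Ertd472e (r = 0.885), Nags (0.863), Fbxw15 (0.840), Dnajb6 (0.838) and Mideas (0.837). None of the other 9 members was among them, and the highest of so many correlations is a description only.

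Baat, which joins bile acids to taurine, was even across the diets. Its levels lay between 1.12 and 1.47 for the Ctrl mice, 1.21 and 1.50 for RS, 1.04 and 1.32 for DJ, and 1.07 and 1.22 for DJ526. The group means ran from 1.14 in DJ526 to 1.32 in RS, and the 95% interval for DJ526 against Ctrl was -0.39 to 0.12, which leaves out a change of 1 unit in either direction.

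Slc10a1 encodes NTCP, the sodium-dependent carrier that takes bile acids from portal blood into hepatocytes. Its brighter probe had means of 8.67, 8.56, 8.60 and 8.59 in Ctrl, RS, DJ and DJ526, and the intervals of all 3 differences from Ctrl lay within -0.35 and 0.18. Its dimmer probe had means of 3.35, 3.13, 3.12 and 3.03. On that probe the DJ526 mice, at 3.00, 3.03 and 3.05, lay below the Ctrl mice, at 3.19, 3.33 and 3.54, with a difference of -0.32 (-0.70 to 0.05, adjusted p = 0.524), whereas the groups overlapped on the brighter probe. The 2 probes therefore differed in how far DJ526 lay below Ctrl, and neither difference passed the test.

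Abcb11, the canalicular bile salt export pump, had levels of 4.98, 5.30 and 5.12 in the Ctrl mice, 4.90, 5.05 and 5.02 in the RS mice, 5.22, 5.78 and 5.15 in the DJ mice, and 5.34, 5.33 and 5.56 in the DJ526 mice. The DJ526 mice lay above all 6 mice on starch and sucrose, and the DJ mice lay above the RS mice and overlapped with Ctrl. Rice was 1.26-fold above starch and sucrose, at 0.33 (0.10 to 0.57, unadjusted p = 0.00943, adjusted p = 0.975). DJ526 was 1.34-fold above RS, at 0.42 (0.09 to 0.75, unadjusted p = 0.0179, adjusted p = 0.715), and 1.21-fold above Ctrl, at 0.28 (-0.05 to 0.61). Within slides, the rice-fed mice were higher in Abcb11 by 0.09 on slide 1, 0.49 on slide 2 and 0.39 on slide 3, and with slide as a block the difference between rice and starch and sucrose was 0.24 (-0.12 to 0.59). With the arrays of RS and DJ exchanged, the Abcb11 difference between rice and starch and sucrose was -0.056 (-0.29 to 0.18).

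Abcb4, which moves phosphatidylcholine into bile, had means of 4.92, 4.72, 4.86 and 4.76 in Ctrl, RS, DJ and DJ526. The lowest of its 12 levels was 4.31, in RS mouse 3, and the highest 5.22, in Ctrl mouse 1. All groups overlapped, and DJ526 against Ctrl had an interval of -0.55 to 0.23.

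**Figure D4:**
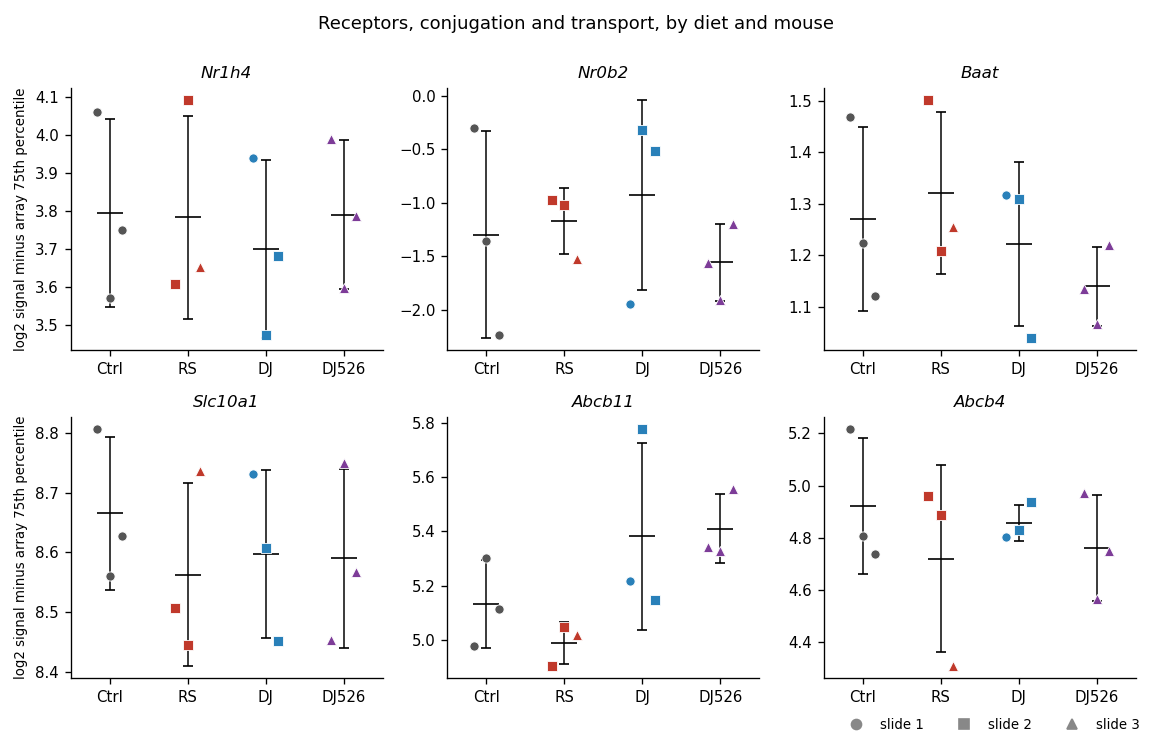
Level of the receptors Nr1h4 and Nr0b2, the conjugating enzyme Baat and the transporters Slc10a1 (brighter probe), Abcb11 and Abcb4 in each mouse by diet, as log2 signal minus the array's 75th percentile, with the symbol giving the slide, and the mean (bar) ± SD of 3 mice. Abcb11 is above all starch and sucrose mice in the DJ526 mice, and the other 5 genes overlap across the diets.

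Other genes of the pathway were read from 3 lists, of 15 further enzymes, 12 further transporters and 16 further regulators, all of which had a probe, although that of the exporter subunit Slc51a was well above background on 0 of 12 arrays. No gene of these lists passed the adjusted threshold in any comparison. At an unadjusted p under 0.05, DJ526 against Ctrl gave 3 of 15 enzymes, 3 of 12 transporters and 3 of 16 regulators (Fgf15 among them), beside 10.8% of all probes, with list medians of -0.03, 0.03 and 0.04 beside 0.02 over all probes. RS against Ctrl gave 0 of 15, 3 of 12 and 2 of 16, beside 6.0%, with medians of 0.02, -0.03 and -0.07, beside 0.03, and without Slc51a the transporter median was 0.01. DJ against Ctrl gave 1 of 15, 1 of 12 and 0 of 16, beside 5.22%, with medians of 0.01, 0.10 and 0.08, beside -0.02.

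Fgf15, a hormone known mainly from the ileum that lowers Cyp7a1 through the receptor Fgfr4 and its partner Klb, was at the bottom of the array's range. It was well above background on all 9 arrays of Ctrl, RS and DJ, at levels between -6.33 and -5.05, and on none of the 3 DJ526 arrays, where it measured -8.48, -7.43 and -8.89. Its signal was 2.74-fold higher in Ctrl, 2.52-fold higher in RS and 1.98-fold higher in DJ than in DJ526, with the dim group set at the higher of its own signal and the dimmest signal well above background on each array. That dimmest signal is taken over all spots of the array, so it is not a strict limit for the Fgf15 spot. Set at this bound, Fgf15 in DJ526 had a difference of -1.45 from Ctrl, and the bound itself was not tested. On the measured signals, which in DJ526 were not well above background, limma gave -2.55 with an adjusted p of 0.115. RS mouse 3, on the same slide as the DJ526 mice, had -5.05. For DJ526 against Ctrl, 48 similarly dim spots near the Fgf15 spot had a median difference of -0.10, and 5891 elsewhere had 0.17.

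Among the enzymes, Cyp46a1, the cholesterol 24-hydroxylase, had levels of -2.87, -2.77 and -2.80 in the DJ526 mice and of -1.44, -1.68 and -1.60 in the Ctrl mice, a difference of -1.24 (-2.07 to -0.41, unadjusted p = 0.00735, adjusted p = 0.281). Cyp3a11, a monooxygenase that hydroxylates bile acids and drugs, was at 6.29, 5.78 and 5.59 in the DJ526 mice and at 6.42, 7.06 and 6.81 in the DJ mice, a difference of -0.88 (-1.46 to -0.30, adjusted p = 0.350). Both separated DJ526 from the other group named. Low levels also occurred outside DJ526. RS mouse 3, on the slide of the DJ526 mice, was at 6.19 for Cyp3a11, beside 7.22 and 6.49 in RS mice 1 and 2. For Cyp46a1 it was at -2.47, beside -1.41 and -1.35, and DJ mouse 3, at -2.95, lay below all DJ526 mice. Hsd3b7, the dehydrogenase that follows Cyp7a1 and Cyp7b1, was higher in all 3 DJ mice, at 6.25, 6.77 and 6.76, than in the Ctrl mice, at 5.72, 6.15 and 5.41, by 0.83 (0.39 to 1.27, unadjusted p = 0.00154, adjusted p = 0.652). In the DJ mice it thus lay above Ctrl while Cyp7a1, the step before it, averaged below.

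Among the transporters, the basolateral exporter Abcc4 was at -0.14, -0.87 and -0.75 in the RS mice and at -1.18, -1.65 and -1.69 in the Ctrl mice, a difference of 0.92 (0.46 to 1.38, unadjusted p = 0.000998, adjusted p = 0.438). The exporters Abcg5 and Abcg8, named after their values were seen, together secrete sterols into bile. Abcg5 differed from Ctrl by 0.34 in RS and 0.32 in DJ526, and Abcg8 by 0.45 and 0.35, with unadjusted p-values between 0.0168 and 0.0486. None of these passed the adjusted threshold. For both genes RS mouse 1, at 4.55 and -0.76, lay among the Ctrl mice, and the DJ526 mice lay above the Ctrl mice. The uptake carrier Slco1a1 was 1.75 lower in DJ526 than in Ctrl (-5.61 against -3.86, adjusted p = 0.392), and the carrier Slco1a4 was at -0.46 in DJ against Ctrl (adjusted p = 0.815). Among the regulators, the xenobiotic receptors Nr1i3 and Nr1i2 differed by 0.49 and 0.38 between RS and Ctrl (adjusted p = 0.808 and 0.739).

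**Figure D5:**
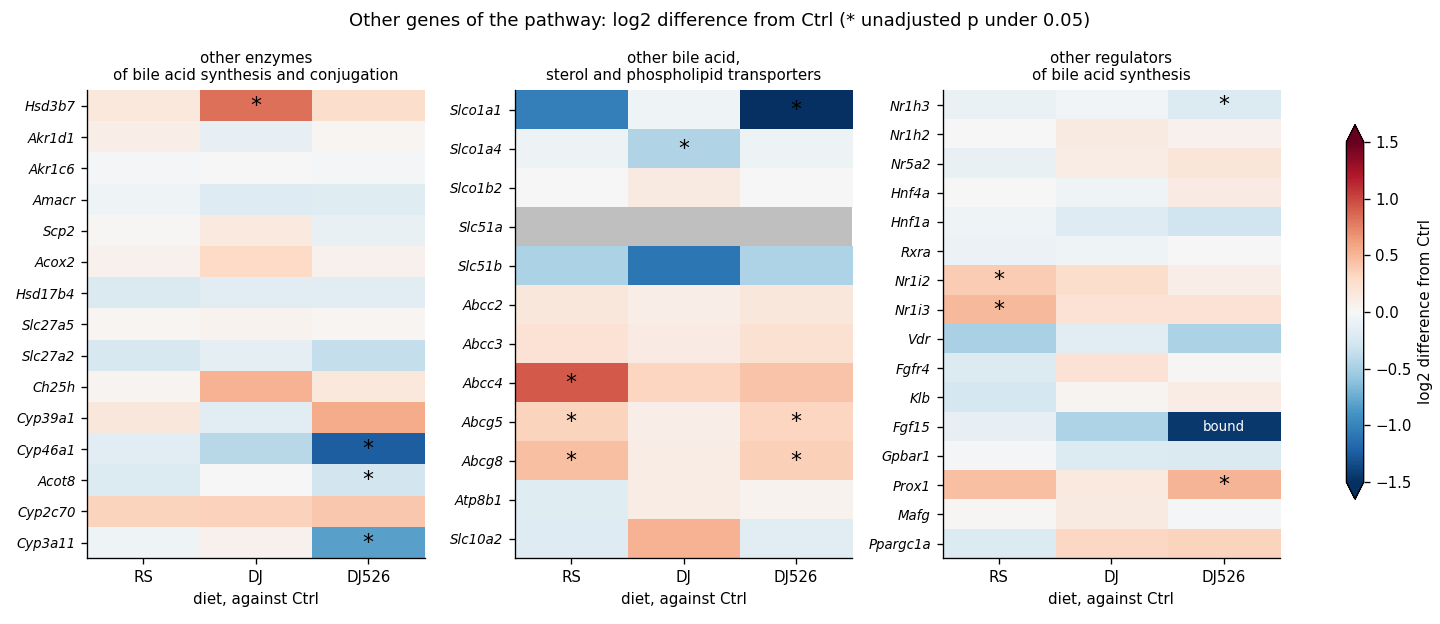
Log2 difference from Ctrl of the genes of the 3 further lists in RS, DJ and DJ526, with blue below and red above Ctrl, the darkest shade for all differences beyond the ends of the scale, and a star for an unadjusted p under 0.05. Fgf15 in DJ526 is drawn at its bound, and Slc51a in grey, as it was well above background on no array. Slco1a1 in DJ526 is the darkest blue among the measured differences, at -1.75, and Abcc4 in RS, at 0.92, is the darkest red.

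Genes that mark the time of day and other liver cells were read beside these results. Per2, a repressor of the clock, was lower in the DJ mice, at -1.41, -1.60 and -1.67, than in the Ctrl mice, at -0.56, -0.64 and -0.41. The difference was -1.03 (-1.40 to -0.66, unadjusted p = 7.39e-05, adjusted p = 0.650). Per2 was the only 1 of 13 clock genes at an unadjusted p under 0.05 there, beside 5.22% of all probes. The summed level of the 13 clock genes ran from 5.69 to 6.87 with the Ctrl diet, 6.32 to 6.56 with RS, 5.86 to 6.56 with DJ and 6.26 to 6.92 with DJ526. Signals were added before the log2, so bright genes weigh most and opposite changes cancel, and the sum cannot show the time of day. Arntl and Npas2 among the 13 were well above background on some arrays only. The part of the clock genes in the Cyp7a1 difference on DJ was not tested.

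Of the hepatocyte markers, 6 of 6 were well above background on all arrays. Their summed level ran from 10.92 to 10.96 with the Ctrl diet, 10.85 to 11.03 with RS, 11.03 to 11.11 with DJ and 10.78 to 10.90 with DJ526. The DJ526 mice thus lay below all Ctrl and all DJ mice in that sum, and the DJ mice above all others. None of the 6 markers passed the adjusted threshold. For DJ526 against Ctrl 2 of 6 were higher and 4 lower, with a median of -0.01, beside 0.02 over all probes. Of the 4, 2 were at an unadjusted p under 0.05, beside 10.8% of all probes. Those 2, named after their values were seen, were albumin (Alb), at 9.01, 9.06 and 9.03 against 9.26, 9.17 and 9.19 (adjusted p = 0.402), and the fibrinogen chain Fgb, with a difference of -0.26 (adjusted p = 0.387). For DJ526 against DJ 1 was higher and 5 lower, with a median of -0.15, beside 0.04 over all probes. Of the 5, 3 were at an unadjusted p under 0.05, beside 9.81% of all probes. For DJ against Ctrl 6 of 6 were higher, with a median of 0.12, beside -0.02 over all probes. Of these, 1 was at an unadjusted p under 0.05, beside 5.22% of all probes. For RS against Ctrl 5 of 6 were higher, with a median of 0.02, beside 0.03 over all probes. The part of the hepatocyte markers in the differences of Cyp7a1, Cyp8b1 and Abcb11 was not tested.

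Markers of other cells also passed no adjusted threshold, and no marker was at background on all 12 arrays. The summed level of 5 stellate cell genes ran from 0.69 to 1.13 in the Ctrl mice, and the RS mice, at 1.16 to 1.40, lay above all of them, while DJ, at 1.04 to 1.70, and DJ526, at 1.05 to 1.32, overlapped with Ctrl. Of the Kupffer cell genes, 5 of 6 had a probe. All 5 had a lower mean than Ctrl in RS (median -0.30) and in DJ (median -0.46), and 4 of 5 in DJ526 (median -0.19). In each, 0 were at an unadjusted p under 0.05, beside 6.0%, 5.22% and 10.8% of all probes. Their sums overlapped, at 4.62 to 5.93 in the Ctrl mice, 4.65 to 4.83 with RS, 4.34 to 5.01 with DJ and 4.49 to 5.27 with DJ526. The 6 cholangiocyte genes summed to 0.56 to 1.57 in the Ctrl mice, 0.92 to 1.08 with RS, 0.77 to 1.01 with DJ and 0.44 to 0.98 with DJ526, and Spp1 among them differed by 0.46 between RS and Ctrl (adjusted p = 0.802). The sums of 5 endothelial genes lay between 5.16 and 5.53 over all mice and those of 6 blood genes between 6.14 and 7.92, and every diet overlapped with Ctrl in both. The part of these markers in the differences of the 10 genes was not tested.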

How the data were processed

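Liver RNA of 12 mice was measured on 12 one-colour Agilent mouse arrays (4 diets, 3 mice each, grouped by the labels). The authors quantified the scanned images with Feature Extraction 11.5.1.1, and the deposited intensity is its background-subtracted processed signal. The authors also deposited a globally normalized intensity table, which equals that signal times 1 factor per array (0.959 to 1.08) for over 99.8% of probes. The genome build was not given in the sources used here. Arrays have no read depth, and 3 mice a diet limit the precision: 3 against 3 cannot go below an exact permutation p of 0.1.

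Non-outlier spots of a probe were averaged, and log2 signals were set against the 75th percentile of the non-control spots, which lay between 953 and 1167. Accessions named 27508 of 39429 probes through RefSeq. limma 3.58.1 in R 4.3.3 fitted 1 mean per diet with a variance trend (8 residual degrees of freedom, median prior 2.98), with Benjamini-Hochberg adjustment over 39429 probes at 0.05. The script was tested on simulated data. A gene was read by its brightest probe. Relations used 100000 permutations (scipy 1.17.1, numpy 2.4.6). Besides the 10 genes, the 3 list genes with the largest difference in each comparison at an unadjusted p under 0.05 were named. The genes and lists were chosen with earlier results of these data known. Alternatives covered scaling, background, dim probes, variance trend, slide, replicate number, test, probe rule and each mouse left out. A supplementary sample list of the study gives the array identifiers of RS and DJ the other way round. The labels were followed, and an alternative exchanged them. All arrays carried the same scan day.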

Additional observations from a re-analysis of the deposited data

How the results depend on the processing

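In no alternative that was run did any of the 10 genes pass the adjusted threshold, and the lowest adjusted p over them was 0.169. Among the differences of Cyp7a1, Cyp8b1 and Abcb11 recomputed with all mice in the fit, 156 values kept their sign and 8 did not. The signs that turned were those of Cyp7a1 with slide as a fixed block (RS against Ctrl 1.17, DJ526 against Ctrl 0.054, difference of resveratrol effects -1.02) and as a random block (RS against Ctrl 0.092, difference of effects -0.045). With the arrays of DJ and RS exchanged, Cyp7a1 became -0.72 for DJ526 against DJ and 0.20 for DJ526 against RS, and Abcb11 became -0.056 for rice against starch and sucrose. The cause was not tested, except that an exchange of labels swaps those values by construction. The t-test for the difference of effects and the test for any difference, and a fit of only the groups compared where all 4 enter, were not run.

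The number of the 10 genes at an unadjusted p under 0.05 moved as follows, with the share of all probes at that p under the same setting in parentheses. For RS against Ctrl (0 genes, 6.0%) it was 1 with a slide block (10.2%) and 1 with DJ and RS exchanged (5.22%). For DJ against Ctrl (1 gene, 5.22%) it was 2 with normexp background (7.35%) and 0 with a fixed slide block (9.78%), 0 with a random one (4.42%), 0 by the methods' t-test (4.62%) and 0 with DJ and RS exchanged (6.0%). For DJ526 against Ctrl (2 genes, 10.8%) it was 0 with a slide block (11.7%), 1 with a random one (5.33%) and 1 by the methods' t-test (12.8%). It was 3 with normexp (12.1%), 3 with only the groups compared (13.5%) and 3 with the mean of all probes of a gene (9.53%). For DJ526 against DJ (1 gene, 9.81%) it was 0 with a slide block (7.49%), 0 by the methods' t-test (10.8%) and 2 with DJ and RS exchanged (5.5%). For DJ526 against RS (2 genes, 5.5%) it was 4 with only the groups compared (5.67%), 3 with a random slide block (4.26%) and 1 with DJ and RS exchanged (9.81%). The difference of effects (0 genes, 6.09%) had 1 with median scaling (5.03%). Rice against starch and sucrose (3 genes, 4.57%) had 1 with a slide block (11.1%) and 1 with DJ and RS exchanged (10.1%). It had 2 without a variance trend (4.44%) and 2 by the methods' t-test (3.71%). Any difference (3 genes, 7.7%) had 1 without a variance trend (7.21%) and 1 with a slide block (8.64%). It had 2 with median scaling (6.73%), 2 with quantile normalization (8.4%) and 2 with normexp (10.2%). It also had 2 with a random slide block (4.25%) and 2 with the mean of all probes of a gene (7.03%).

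The number of probes called also moved, among 39429 probes tested except 30123 with the filter on dim probes, 39287 with normexp and 20886 genes with the mean of all probes. With a fixed slide block it was 1 for RS against Ctrl, 8 for DJ against Ctrl, 0 for DJ526 against Ctrl, 40 for DJ526 against RS, 17 for the difference of effects, 3 for rice and 11 for any difference. For DJ526 against Ctrl (2 probes) it was 4 with median scaling, 9 with quantile normalization, 4 with a filter on dim probes, and 0 with normexp, without a variance trend, with a random slide block, with only the groups compared and by the methods' t-test. With the mean of all probes of a gene it was 3. For DJ526 against DJ (4 probes) it was 10 with median scaling, 27 with quantile normalization, 14 with the filter, 11 without the trend, 1 with normexp, 2 with a random slide block, 0 with only the groups compared and 1 by the methods' t-test. With DJ and RS exchanged it was 3. For DJ526 against RS (3 probes) it was 8 with the filter, 1 without the trend, 1 with normexp, and 0 with only the groups compared and by the methods' t-test. It was 4 with the mean of all probes of a gene and 4 with DJ and RS exchanged. Any difference (2 probes) had 5 with quantile normalization, 1 with normexp, 0 without the trend, 0 with a random slide block and 4 with the mean of all probes of a gene. It had 3 with median scaling and 3 with the filter.

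The replicate numbers do not pair the mice: over 18 pairs of same-numbered mice of different diets the correlation of their deviations ran from -0.354 to 0.406, with 6 over 0.1. With the replicate block, 0 probes were called for DJ526 against Ctrl, 0 for DJ526 against DJ, 0 for DJ526 against RS and 0 for any difference, and 1 of the 10 genes stood at an unadjusted p under 0.05 for DJ526 against Ctrl, beside 10.4% of all probes. At that p, 2 of the 10 genes stood for rice, beside 4.56%, and 2 for any difference, beside 7.2%.

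Among the relations, Nr0b2 and Cyp8b1 turned to -0.089 with diet means taken off and -0.104 with slide means taken off. Nr1h4 and Nr0b2 turned to 0.148 with median scaling, 0.043 with diet means off and 0.113 with slide means off, and Cyp7a1 and Cyp8b1 to -0.369 with diet means off and -0.016 with normexp. With normexp Nr0b2 had no value on 1 array, and its relations used 11 mice.

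Leaving out each mouse in turn gave 0 to 4 probes for RS against Ctrl, 0 to 1 for DJ against Ctrl, 0 to 173 for DJ526 against Ctrl, 0 to 107 for DJ526 against DJ, 0 to 28 for DJ526 against RS, 0 to 19 for the difference of effects, 0 for rice and 0 to 51 for any difference. The counts of the 10 genes at an unadjusted p under 0.05 follow, with the share of all probes in parentheses. They were 0 to 1 for DJ against Ctrl (4.2% to 7.6%) and 1 to 3 for DJ526 against Ctrl (7.23% to 12.8%). Counts of 1 to 3 also held for DJ526 against DJ (6.1% to 15%) and against RS (4.08% to 9.74%). The difference of effects had 0 to 2 (4.65% to 9.55%), rice 2 to 4 (3.7% to 6.98%) and any difference 1 to 3 (5.2% to 10.9%). Cyp7a1 ran from -0.47 to 0.0070 (without Ctrl mouse 3) for RS against Ctrl and from -0.23 to 0.75 for DJ526 against DJ, the lowest without DJ mouse 3. The relation of Nr0b2 and Cyp7a1 ran from -0.699 to -0.406, Nr0b2 and Cyp8b1 from 0.085 to 0.416, Nr1h4 and Nr0b2 from -0.288 to 0.226, Nr1h4 and Abcb11 from -0.523 to -0.092, and Cyp7a1 and Cyp8b1 from -0.0037 to 0.374.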
